A study of Mus musculus with 12 samples.

Results

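The interferon-stimulated genes described here are 39 mouse genes and regulators that interferons are known to induce. They were chosen by gene symbol, with earlier results of these data known, and without the Gbp genes and the proteasome subunits. Of the 39, 36 had a probe set annotated to a single gene symbol, among 19935 genes measured that way. Isg15, Igtp and Ifi44 had no such probe set and are named only. A gene was tested when its mean log2(intensity + 1) over all arrays lay above 7.52, the median of all genes and an intensity of 182. This left 34 of the 36 among 9967 tested genes, and Mx1 and Mx2 fell below it.

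RNA came from hematopoietic stem cells, sorted as lineage-negative cells positive for c-kit, Sca-1 and CD150 and negative for CD48, with 5000 to 7000 cells collected per sort. The mice were 2 to 3 months old and each received 100 µL of corn oil under the skin. In males and in females, 3 mice received the oil alone and 3 received it with 2 µg of estradiol (E2), the main estrogen, which gave 12 Affymetrix Mouse Gene 1.0 ST arrays in 4 groups. The sources used here give neither strain nor length of treatment, and do not describe the gonads. E2 was given to the whole animal and not to isolated cells.

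Type I interferons bind the receptor chains Ifnar1 and Ifnar2, and the kinases Jak1 and Tyk2 then activate Stat2. It works with Irf9 in a complex that binds the interferon-stimulated response element (ISRE) in promoters of antiviral genes, one of which, Irf7, raises interferon production in turn. Stem cells are known to carry a basal level of many of these transcripts, and acute interferon drives normally dormant stem cells into cycle.

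The ISRE is a shared letter pattern that the choice of the genes did not use. Its core was searched as GAAANNGAAA on both strands, that is with TTTCNNTTTC, in the 250 bases before each annotated start in RefSeq (GRCm38.p6). Of the 39 genes 30 had an entry, and 10 of these held the core (33.3%), against 3.46% of all 27025 genes with an entry. The GAS element, TTCNNNGAA, which STAT dimers bind, was present in 6 of 30 against 8.13% of all genes, and an overlap with an ISRE core was allowed. A full estrogen response element, GGTCANNNTGACC, was in 0 of 30 windows and in 0.0666% of all genes. A match is a run of letters and not a shown binding site, and a missing match says only that these letters are not in the window. The stretches around the core are shown for the 8 genes that both held it and were tested, 5′ to 3′ along the gene, with the core and its overlapping copies in capitals.
Irgm1, chr11:48871421-48871465, minus strand: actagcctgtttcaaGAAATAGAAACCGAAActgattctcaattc
Stat2, chr10:128270261-128270300, plus strand: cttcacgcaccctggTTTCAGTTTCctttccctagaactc
Oas3, chr5:120777710-120777749, minus strand: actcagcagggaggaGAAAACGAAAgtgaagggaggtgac
Ifit1, chr19:34640770-34640828, plus strand: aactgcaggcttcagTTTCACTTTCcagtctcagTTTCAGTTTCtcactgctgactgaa
Ifit3, chr19:34583358-34583431, plus strand: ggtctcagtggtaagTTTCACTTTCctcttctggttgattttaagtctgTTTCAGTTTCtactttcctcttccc
Rsad2, chr12:26456548-26456587, minus strand: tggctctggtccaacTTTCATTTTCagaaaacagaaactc
Bst2, chr8:71537572-71537617, minus strand: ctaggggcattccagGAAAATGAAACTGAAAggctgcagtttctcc
Trim30a, chr7:104465205-104465244, minus strand: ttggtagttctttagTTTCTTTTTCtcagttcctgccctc
In Irgm1 the overlapping cores lay 15 to 30 bases before the start, in Trim30a 27 to 36 bases, in Oas3 66 to 75 bases and in Ifit1 76 to 104 bases. In Ifit3 they lay 113 to 156 bases before it, and in Stat2 213 to 222 bases.

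The main pattern was one of direction: most of the genes lay higher under E2 in males and lower in females. On the scale used throughout, a difference is that of group means of log2(intensity + 1), tested with limma over all tested genes, with Benjamini-Hochberg adjustment and a call at adjusted p under 0.05. In males 28 of the 34 genes lay higher under E2 than under oil, with a median difference of 0.14, while the median of all tested genes was 0.00. In females 32 of 34 lay lower, with a median of -0.22 against -0.02 for all genes. Higher in males and lower in females at once were 26 of the 34, or 76.5%, against 20% of all tested genes. In bulk RNA a change in the mix of sorted cells and a change of RNA per cell cannot be told apart.

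**Figure D1:**
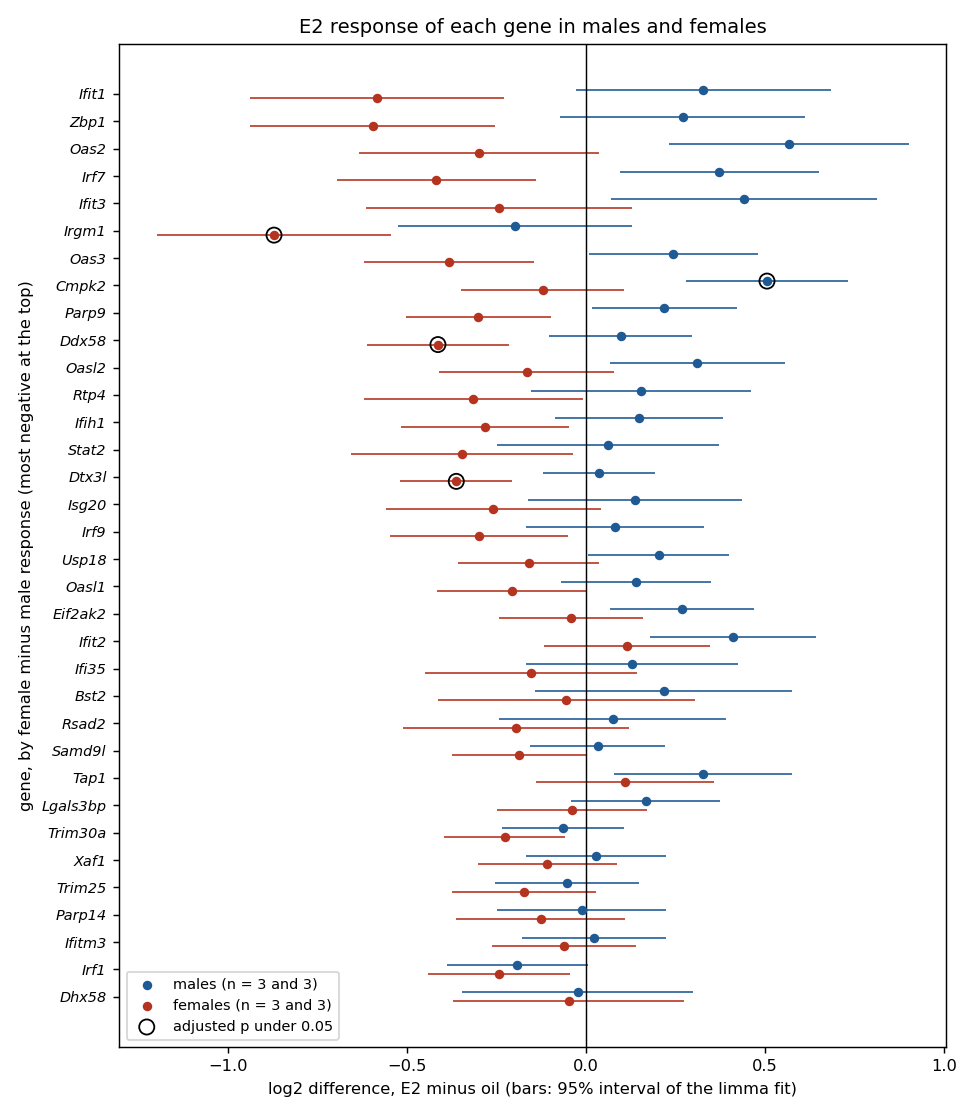
Log2 difference between E2 and oil for each of the 34 tested genes (points; lines give the 95% interval of the limma fit), males in blue and females in red, 3 arrays a group, with adjusted p under 0.05 ringed. On the values as deposited the female point lies left of the male point for all 34 genes; the ringed genes are Cmpk2 in males and Irgm1, Ddx58 and Dtx3l in females.

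The single arrays showed how even this was. For each array the median over the 34 genes was taken of the log2 level minus that gene's mean over the 12 arrays. It was -0.10, -0.07 and -0.09 on the male oil arrays and 0.14, -0.07 and 0.13 on the male E2 arrays. The female oil arrays gave 0.10, 0.15 and 0.09, and the female E2 arrays gave -0.07, -0.12 and -0.17. All female arrays thus separated by treatment, whereas male E2 replicate 2 lay among the male oil arrays and was the lowest of its group for 28 of the 34 genes. Over all tested genes the same median stayed between -0.04 and 0.02 on every array. The within-group SD of the 34 genes had a median of 0.15 among the male E2 arrays, where all tested genes had 0.09, and in male oil arrays both medians were 0.11. In female oil arrays the medians were 0.09 and 0.10. Leaving out each array in turn gave a median male difference from 0.09, without male E2 replicate 1, to 0.20, without male E2 replicate 2. With all arrays it was 0.14.

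The female E2 arrays were the most scattered over all genes. Their correlations with each other were 0.9603 to 0.9649, against 0.9739 to 0.9818 within the other groups, and the within-group SD had a median of 0.16 over all tested genes and 0.15 over the 34. Fitted array weights were 0.326, 0.597 and 0.664 on these arrays and 0.879 to 2.10 on the others. With these weights the median female difference of the 34 genes was -0.24 in place of -0.22, and leaving out each array in turn gave -0.24 to -0.19. The part of this scatter in the female differences was not tested.

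**Figure D2:**
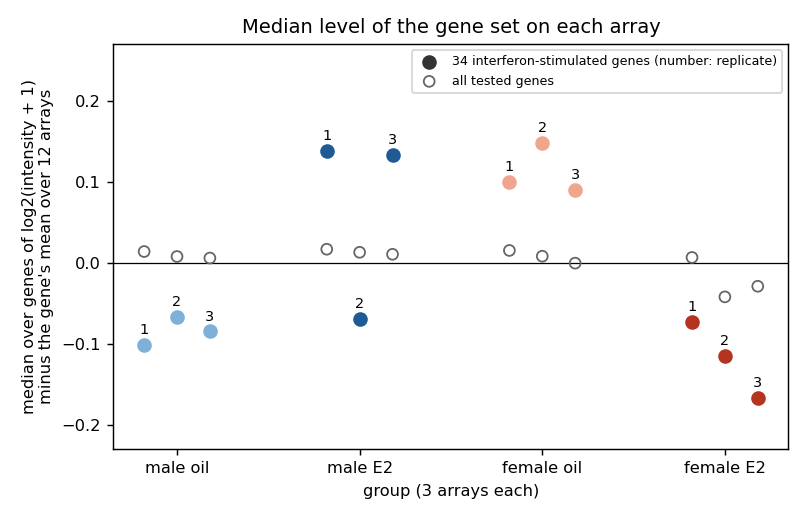
Median over the 34 interferon-stimulated genes (filled, numbered by replicate) and over all tested genes (open) of log2(intensity + 1) minus the gene's mean over the 12 arrays, by group. Female oil arrays lie between 0.09 and 0.15 and female E2 arrays between -0.17 and -0.07, while male E2 replicate 2 at -0.07 lies with the male oil arrays.

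**Figure D3:**
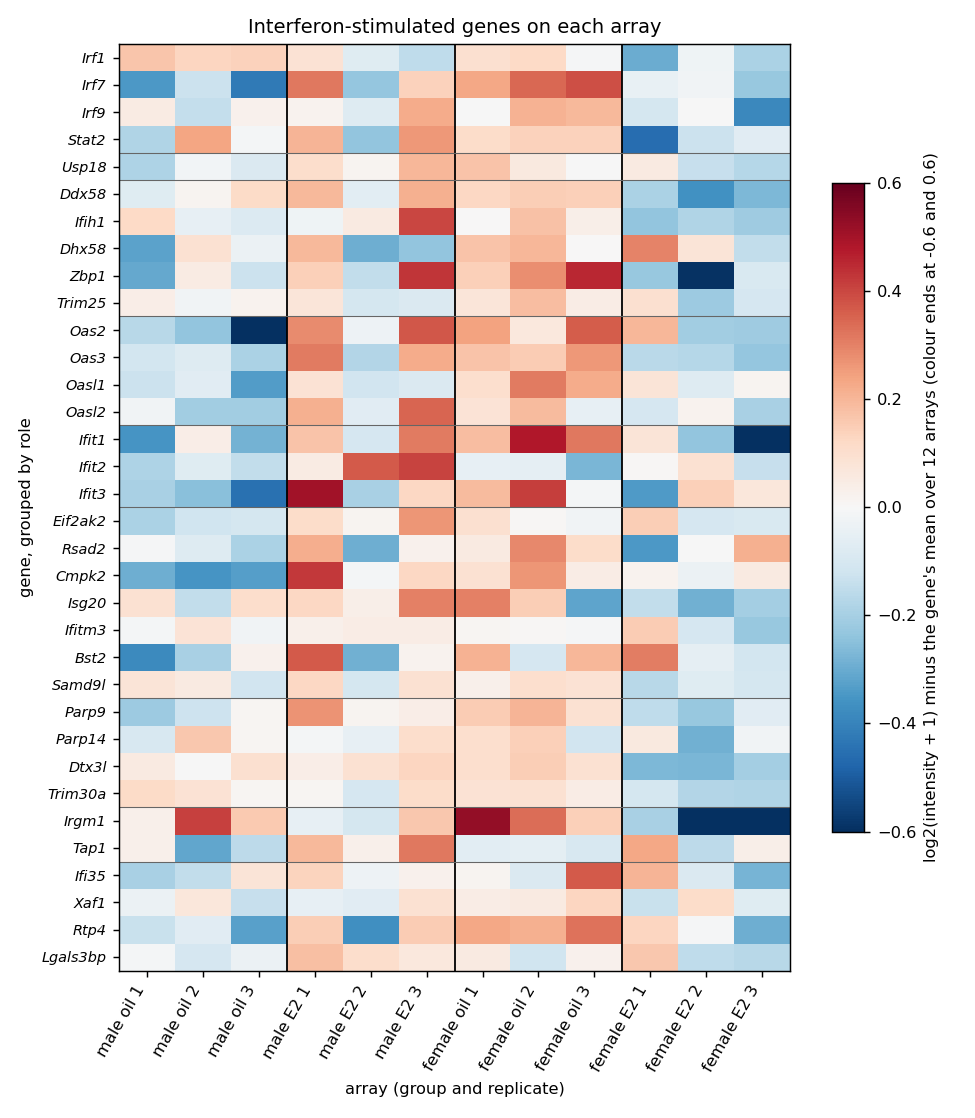
Log2(intensity + 1) minus the gene's mean over the 12 arrays for the 34 tested genes (rows, by role) on each array (columns), with the colour scale ending at -0.6 and 0.6. Most genes are blue on the male oil arrays and on female E2 replicates 2 and 3, and red on the female oil arrays; on female E2 replicate 1, 16 of 34 were above the gene mean, and male E2 replicate 2 was above the gene mean for 10 of 34 genes, where replicates 1 and 3 were for 30.

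Calls for single genes were few. In males 1 of 34 was called, Cmpk2, which rose (0.572% of all tested genes were called higher), and 11 of 34 had an unadjusted p under 0.05, all higher (7.48% of all genes higher by that rule). Groups did not overlap, with all E2 arrays above all oil arrays, for 7 of 34 (13.6%). In females 3 of 34 were called, and Irgm1, Ddx58 and Dtx3l all fell (2.75% of all genes called lower). Unadjusted p was under 0.05 for 14 of 34 in females, all lower (12.5%), and all E2 arrays lay below all oil arrays for 16 of 34 (13.1%).

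Among the transcription factors, Irf7, the interferon amplifier, had male oil intensities of 333, 386 and 315 and male E2 intensities of 526, 359 and 464. In females its values were 496, 536 and 552 under oil and 409, 416 and 361 under E2. E2 arrays of females lay entirely below the oil arrays, while the male groups overlapped through male E2 replicate 2. The male difference was 0.37 ± 0.13 (SE, adjusted p = 0.196, limma) and the female one -0.42 ± 0.13 (adjusted p = 0.0961). Irf7 was described in this detail after its values were seen, because its 2 responses differed with the smallest p of the 34.

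Irf1, a factor induced mainly by interferon gamma and also a regulator of MHC class I genes, moved differently. Its male values were 646, 629 and 634 under oil and 611, 547 and 517 under E2. Female values were 615, 625 and 573 under oil and 467, 565 and 504 under E2. In both sexes every E2 array lay below every oil array of that sex, by -0.19 ± 0.09 in males and -0.24 ± 0.09 in females, and neither was called (limma adjusted p = 0.355 and 0.169). The average over the sexes was -0.22 ± 0.06 (adjusted p = 0.0538).

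Irf9 and Stat2, the DNA-binding and activating subunits of the interferon-induced complex ISGF3, differed in males by 0.08 ± 0.12 and 0.06 ± 0.14. In females the differences were -0.30 ± 0.12 and -0.35 ± 0.14, again with no overlap between the female groups for either. All 4 factors had an unadjusted p under 0.05 in females, all lower (12.5% of all tested genes, limma). Usp18, the protease that removes ISG15 from proteins and damps the type I receptor, differed by 0.20 ± 0.09 in males and -0.16 ± 0.09 in females, with all male E2 arrays above the male oil arrays.

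The 5 genes for sensors of foreign nucleic acid and their regulators all lay lower under E2 in females. So did 32 of all 34 genes and 55.8% of all tested genes. Ddx58 encodes RIG-I, which recognises viral RNA with a free triphosphate end. Its female oil arrays read 679, 690.2 and 689 and its female E2 arrays 546, 484 and 517, while males read 593, 630.0 and 674 under oil and 714, 597 and 723 under E2. The female oil group was tight and lay wholly above the female E2 group, and the male groups overlapped. Ddx58 fell in females by 0.41 log2 units (SE 0.09, adjusted p = 0.0278, limma), and differed by 0.10 ± 0.09 in males (adjusted p = 0.677). The call was lost under 7 of 22 alternatives, among them leaving out any 1 female oil array or female E2 replicate 2, with adjusted p from 0.0203 to 0.106 over all of them.

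Zbp1 detects left-handed nucleic acid and can start necroptosis. It had female values of 388, 426 and 482 under oil and 300.0, 232 and 330.2 under E2, and male values of 284, 364 and 322 under oil and 389, 317 and 474 under E2. Female groups were apart and male groups overlapped. Its differences were -0.60 ± 0.16 in females (adjusted p = 0.0582, limma) and 0.27 ± 0.16 in males (adjusted p = 0.46), neither called. Ifih1, which encodes the long-RNA sensor MDA5, gave -0.28 ± 0.11 and 0.15 ± 0.11. Dhx58, a regulator of both sensors, and Trim25, a ubiquitin ligase for RIG-I, gave -0.05 ± 0.15 and -0.17 ± 0.09 in females and -0.02 ± 0.15 and -0.05 ± 0.09 in males.

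OAS proteins make the messenger that activates the antiviral nuclease RNase L. All 4 genes of the family among the 39 lay higher under E2 in males, from 0.14 for Oasl1 to 0.57 for Oas2, and lower in females, from -0.38 for Oas3 to -0.17 for Oasl2. Oas2 read 335, 319 and 237 on the male oil arrays and 458, 369 and 487 on the male E2 arrays, with no overlap. On female arrays it read 446, 393 and 485 under oil and 432, 326 and 324 under E2, where replicate 1 under E2 fell within the oil range. Its male difference of 0.57 ± 0.16 was the largest of the 34 and was not called (adjusted p = 0.105, limma), and the female one was -0.30 ± 0.16 (adjusted p = 0.338). Oas3 in females gave -0.38 ± 0.11 (adjusted p = 0.0769). Outside the 39, the tested relatives Oas1a and Oas1b did not lie lower in females, at 0.03 ± 0.11 and 0.13 ± 0.12, with 0.42 ± 0.11 and 0.08 ± 0.12 in males, and neither was called.

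IFIT proteins bind viral RNA and block its translation. Ifit1 had male values of 287, 376 and 301 under oil and 413, 342 and 456 under E2, and female values of 417, 512 and 457 under oil and 387, 311 and 241 under E2. Male E2 replicate 2 again lay inside the oil range, while the female groups were apart. Its differences were 0.33 ± 0.16 in males (adjusted p = 0.378, limma) and -0.58 ± 0.16 in females (adjusted p = 0.0718).

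Ifit3, which stabilises the IFIT complex, read 219, 211 and 184 in males under oil and 356, 219 and 274 under E2. Its female values were 287, 335 and 249 under oil and 198, 277 and 263 under E2. Both pairs of groups touched or overlapped, with differences of 0.44 ± 0.17 and -0.24 ± 0.17 (adjusted p = 0.248 and 0.497, limma). Ifit3 has a near-identical neighbour, Ifit3b, so its probe set may read both.

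Ifit2 departed from its relatives by lying higher under E2 in both sexes. Male values were 279, 301 and 286 under oil and 329, 410.1 and 419.8 under E2, and female values were 307, 305 and 262 under oil and 319, 337 and 288 under E2. The male groups were apart, and replicate 2 was not low here, while the female groups overlapped. Differences were 0.41 ± 0.11 in males (adjusted p = 0.0907, limma) and 0.11 ± 0.11 in females (adjusted p = 0.625). Averaged over the sexes it rose by 0.26 ± 0.08 (adjusted p = 0.0485). The call on the average held under 5 of 21 alternatives only, with adjusted p from 0.0206 to 0.122, and was lost when male E2 replicate 2 was left out (0.122).

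Among the other antiviral effectors all 7 tested genes lay higher under E2 in males and lower in females. Cmpk2, a mitochondrial nucleotide kinase gene placed beside Rsad2 and induced with it, read 172, 165 and 168 on male oil arrays and 283, 209.8 and 231 on male E2 arrays. On female arrays it read 225, 254 and 218 under oil and 214, 206 and 219 under E2. The male oil arrays were the lowest 3 of the 12, and the male groups did not overlap, while the female groups overlapped. Cmpk2 rose in males by 0.51 ± 0.11 (adjusted p = 0.0301, limma), with -0.12 ± 0.11 in females (adjusted p = 0.591). The call was lost under 7 of 22 alternatives, among them leaving out any 1 male oil array or male E2 replicate 1 or 3, with adjusted p from 0.0172 to 0.124.

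Rsad2, which encodes viperin, gave 0.07 ± 0.15 in males and -0.20 ± 0.15 in females. Eif2ak2, the RNA-activated kinase PKR that stops translation, gave 0.27 ± 0.09 and -0.04 ± 0.09, with all male E2 arrays above the oil arrays. Isg20, an exonuclease, gave 0.14 ± 0.14 and -0.26 ± 0.14, and Bst2, the tether of budding virions, gave 0.22 ± 0.17 and -0.05 ± 0.17. None of these was called. The GTPases Mx1 and Mx2 were too dim to be tested, with intensities of 88.7 to 135 for Mx1 and 89.8 to 205 for Mx2 over the 12 arrays.

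The 5 genes with the brightest probe sets, Ifitm3, Lgals3bp, Tap1, Trim30a and Samd9l, held no call. Ifitm3, which keeps viruses from fusing with membranes, read 4678, 5000.3 and 4654 in males under oil and 4812, 4872 and 4864 under E2. Its female values were 4749, 4734 and 4694 under oil and 5247, 4398 and 4027 under E2, the widest spread of the 4 groups. Its differences were 0.02 ± 0.09 and -0.06 ± 0.09. Samd9l, a growth and translation restraint known from inherited marrow failure, read 1133, 1117 and 993 in males under oil and 1172, 999 and 1147 under E2. In females its values were 1098, 1154 and 1144 under oil and 959, 1024 and 999 under E2, and these female groups did not overlap (-0.19 ± 0.09, adjusted p = 0.269, limma).

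Lgals3bp, a secreted glycoprotein that binds galectins, read 1933, 1817 and 1900.0 in males under oil and 2209.6, 2099 and 2034 under E2, with no overlap. Female values were 2024, 1792 and 1981 under oil and 2176, 1753 and 1737 under E2, which overlapped. Differences were 0.17 ± 0.10 and -0.04 ± 0.10, neither called. Tap1, which carries peptides into the endoplasmic reticulum for MHC class I, read 1372, 1081 and 1205 in males under oil and 1536, 1372 and 1675 under E2. Its female values were 1287, 1289 and 1258 under oil and 1577, 1206 and 1375 under E2. One female E2 array, at 1206, lay below the oil arrays, and the male groups met at 1372. Tap1 differed by 0.33 ± 0.12 in males and 0.11 ± 0.12 in females (adjusted p = 0.202 and 0.666, limma), and Ifit2 was the other gene above 0 in females.

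Dtx3l is a ubiquitin ligase that works as a pair with Parp9, and the genes are neighbours with a shared promoter region. Dtx3l read 656, 678 and 651 in females under oil and 508, 505 and 531 under E2, and in males 634, 611 and 654 under oil and 628, 652 and 668 under E2. The female E2 arrays were the lowest 3 of all 12. It fell in females by 0.36 log2 units (SE 0.07, adjusted p = 0.0168, limma) and differed by 0.04 ± 0.07 in males (adjusted p = 0.869). The call was lost under 5 of 22 alternatives, those without any 1 female oil array among them, with adjusted p from 0.0155 to 0.125.

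Parp9 read 383, 409 and 450.2 in males under oil and 539, 451 and 459 under E2, and 496, 515 and 476 in females under oil against 401, 381 and 425 under E2. Of the 34 genes it alone had all male E2 arrays above the male oil arrays and all female E2 arrays below the female oil arrays, as had 0.14% of all tested genes. Differences were 0.22 ± 0.09 in males and -0.30 ± 0.09 in females (adjusted p = 0.299 and 0.101, limma). Parp14, another ADP-ribosyl transferase, gave -0.01 ± 0.11 and -0.13 ± 0.11.

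Trim30a, a restrainer of innate signalling, read 1188, 1164 and 1106 in males under oil and 1106, 1024 and 1183 under E2. In females it read 1164, 1168 and 1131 under oil and 1020.0, 972 and 967 under E2. The female groups were apart and the male ones overlapped, with -0.23 ± 0.08 in females (adjusted p = 0.133, limma) and -0.06 ± 0.08 in males. Trim30a has close copies beside it, which its probe set may not separate.

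Irgm1 showed the largest decrease of the 34. It encodes an immunity-related GTPase that acts in autophagy and whose loss in mice is known to impair stem cells. Female oil arrays read 932, 815 and 713 and female E2 arrays 565, 379.9 and 412, with no overlap. Male oil arrays read 661, 859 and 722 and male E2 arrays 625, 600.1 and 723, which overlapped. Irgm1 fell in females by 0.87 log2 units (SE 0.15, adjusted p = 0.0085, limma), and averaged over the sexes by 0.53 (SE 0.11, adjusted p = 0.00813). The male difference was -0.20 ± 0.15 (adjusted p = 0.587). The average was called under all 21 alternatives, and the female call was lost under 1 of 22, with the compared groups alone (adjusted p = 0.0655).

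**Figure D4:**
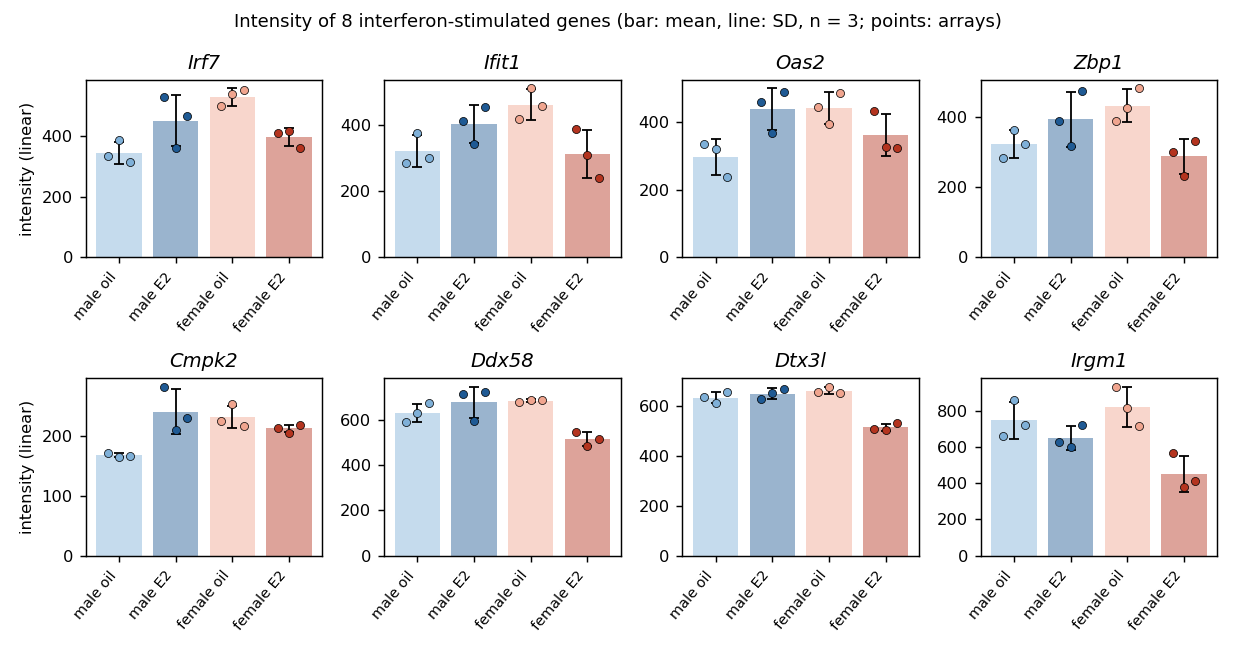
Intensity on a linear scale of 8 genes in the 4 groups (bars, means; lines, SD, n = 3; points, arrays). All 8 have a lower bar in female E2 than in female oil, and all but Irgm1 a lower bar in male oil than in male E2. Ddx58, Dtx3l, Irgm1, Ifit1 and Zbp1 are lowest in female E2, and Irf7, Oas2 and Cmpk2 in male oil.

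The promoter windows of the 4 genes called in 1 sex are shown because these genes carry the single-gene calls, 250 bases up to the base before the start, with ISRE cores in capitals.
Irgm1, chr11:48871421-48871670, minus strand: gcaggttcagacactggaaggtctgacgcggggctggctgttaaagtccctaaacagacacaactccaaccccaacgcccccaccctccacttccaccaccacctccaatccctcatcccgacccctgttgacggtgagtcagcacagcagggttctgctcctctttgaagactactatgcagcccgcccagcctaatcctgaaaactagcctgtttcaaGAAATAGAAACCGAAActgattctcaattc
Dtx3l, chr16:35939028-35939277, minus strand: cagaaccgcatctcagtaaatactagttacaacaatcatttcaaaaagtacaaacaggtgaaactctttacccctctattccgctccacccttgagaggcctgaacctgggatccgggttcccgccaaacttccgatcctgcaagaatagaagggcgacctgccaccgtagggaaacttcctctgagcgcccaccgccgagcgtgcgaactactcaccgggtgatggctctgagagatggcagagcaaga
Ddx58, chr4:40239826-40240075, minus strand: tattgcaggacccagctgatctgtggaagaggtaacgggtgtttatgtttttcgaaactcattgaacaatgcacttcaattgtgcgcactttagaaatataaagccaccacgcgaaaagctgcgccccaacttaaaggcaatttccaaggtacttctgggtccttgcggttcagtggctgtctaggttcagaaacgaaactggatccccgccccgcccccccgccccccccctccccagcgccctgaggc
Cmpk2, chr12:26468965-26469214, plus strand: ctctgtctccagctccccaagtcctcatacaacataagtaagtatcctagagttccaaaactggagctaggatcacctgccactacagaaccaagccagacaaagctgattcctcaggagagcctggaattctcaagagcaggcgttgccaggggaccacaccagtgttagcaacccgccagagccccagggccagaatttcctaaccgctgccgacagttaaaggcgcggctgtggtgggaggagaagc
Of these 4 windows the one of Irgm1 held the exact core. The 8 tested genes with the core had a median female difference of -0.29, from -0.87 (Irgm1) to -0.05 (Bst2), and 8 of 8 lay below 0. The 19 tested genes with an entry but no core had a median of -0.17, and 17 of 19 lay below 0. In males the medians were 0.15 with the core and 0.14 without it. These splits are descriptions of few genes and were not tested.

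Of the other induced genes, Rtp4, a receptor transport protein that restricts viral RNA, gave 0.15 ± 0.14 in males and -0.31 ± 0.14 in females, with no overlap between the female groups. Ifi35 gave 0.13 ± 0.14 and -0.15 ± 0.14, and the pro-apoptotic Xaf1 gave 0.03 ± 0.09 and -0.11 ± 0.09. None was called.

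On the average over the sexes 10 of 34 genes lay above 0 and 24 below, with a median of -0.05. Without male E2 replicate 2 47.1% lay above 0 in place of 29.4%. The calls were 2 of 34, Ifit2 higher and Irgm1 lower, against 8.9% of all tested genes called in either direction. The largest increases were those of Ifit2, Tap1 at 0.22 ± 0.08 and Cmpk2 at 0.19 ± 0.07, and the largest decreases those of Irgm1, Irf1 and Zbp1 at -0.16 ± 0.11. The averages of Tap1 and Cmpk2 had adjusted p = 0.116 and 0.127 (limma).

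The test of the difference between the sexes' responses, the female difference minus the male one, uses all 4 groups. It lay below 0 for 34 of 34 genes, against 59.5% of all tested genes, with a median of -0.37 where all genes had -0.04. With quantile normalization 2.94% of the tested members lay above 0, and without male E2 replicate 1 it was 5.88%. By limma 0 of 34 were called (0.01% of all tested genes), and 18 of 34 had an unadjusted p under 0.05, all lower (3.2% of all genes). Another setting of limma, with trend and robust estimation, also called 0. The smallest adjusted p of the 34 was 0.591, for Irf7 at -0.79 ± 0.18. The 3 largest differences were those of Ifit1 at -0.91 ± 0.23, Zbp1 at -0.87 ± 0.22 and Oas2 at -0.86 ± 0.22, each with adjusted p = 0.654. Cmpk2 gave -0.63 ± 0.15 (adjusted p = 0.604) and Irgm1 -0.67 ± 0.21 (adjusted p = 0.842). Among the 100 genes with the smallest p in this test 10 were of the 34, which are part of 9967 tested genes. Irf1 and Dhx58 showed next to no difference, at -0.05 ± 0.13 and -0.03 ± 0.21. In simulated arrays of this design, a true difference of responses of 0.5 was called for 26% of genes and one of 1 for 86%. The simulation changed 50 genes at each of the log2 sizes 0.3, 0.5, 1 and 2, with independent noise of equal spread in all groups. Adjusted p depends on how many genes change, and in the data only 1 gene was called. These rates therefore do not give the power for the 34 genes.

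**Figure D5:**
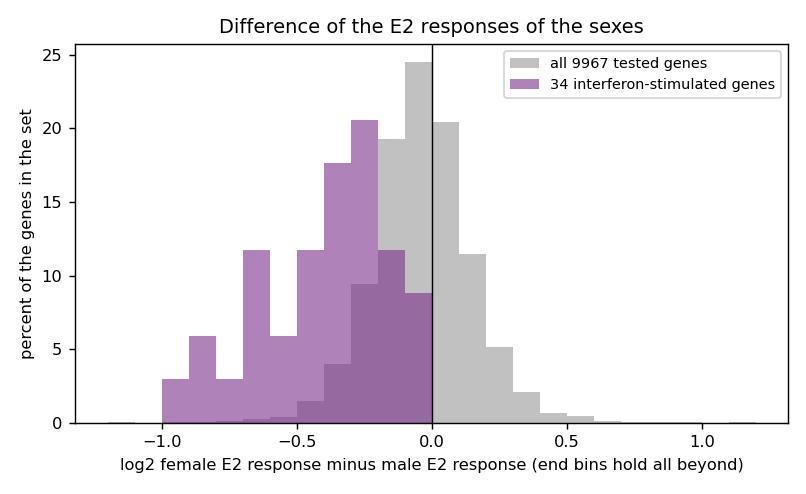
Percent of genes by the log2 female E2 response minus the male one, in bins of 0.1, for all tested genes (grey) and the 34 interferon-stimulated genes (purple). All 34 lie below 0 on the values as deposited, with a median of -0.37, while all tested genes centre at -0.04.

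In mice given oil alone, the means of 32 of 34 genes were higher in females than in males, with no single gene called. The median difference under oil was 0.16 against 0.00 for all tested genes. By limma 0 of 34 were called (0.0401% of all genes), 10 had an unadjusted p under 0.05, all higher (2.39%), and for 15 of 34 every female oil array lay above every male oil array (5.65%). Irf7 had the largest difference, 0.62 ± 0.13 (adjusted p = 0.242), with female values of 496 to 552 and male values of 315 to 386. Oas2 gave 0.58 ± 0.16, Ifit1 0.53 ± 0.16, Ifit3 0.50 ± 0.17, Cmpk2 0.46 ± 0.11, Rtp4 0.43 ± 0.14, Zbp1 0.42 ± 0.16 and Oasl1 0.39 ± 0.10. Irf1 and Ifitm3 were the genes not higher in females, at -0.08 ± 0.09 and -0.01 ± 0.09.

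Under E2 the order was turned, and 31 of 34 genes lay lower in females than in males, with a median of -0.17 against -0.04 for all genes. By limma 0 of 34 were called (0.01% of all genes), 11 had an unadjusted p under 0.05, all lower (6.39%), and for 7 of 34 every female array lay below every male one (8.72%). Irgm1 gave -0.54 ± 0.15 (adjusted p = 0.452), Zbp1 -0.45 ± 0.16, Ddx58 -0.39 ± 0.09 and Dtx3l -0.34 ± 0.07 (adjusted p = 0.369). With quantile normalization 20.6% of the tested members lay above 0 in place of 8.82%. Without male E2 replicate 2 the median was -0.24. These sex comparisons share their arrays with the E2 comparisons: the male oil arrays, low here, are also the base of the male responses, and the female oil arrays, high here, the base of the female ones, so the values are given side by side and are not separate evidence.

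The rest of the pathway was read from lists of other interferon genes. The receptor chains were 5 tested genes of 6, and all 5 lay lower under E2 in females, with unadjusted p under 0.05 each (12.5% of all tested genes) and E2 arrays below oil arrays each (13.1%). Ifnar1, the signalling chain of the type I receptor, fell in females by 0.36 log2 units (SE 0.09, adjusted p = 0.0356, limma), against -0.13 ± 0.09 in males. Its group means were 739 ± 34.6 (SD, n = 3) under oil and 575 ± 47.0 under E2 in females. Ifnar1 and Il10rb, a chain of the interferon lambda receptor, were called lower on the average, at -0.25 ± 0.06 and -0.34 ± 0.09 (5.78% of all tested genes). Of the kinases and STATs 8 were tested and none was called by limma in the 3 E2 comparisons. Unadjusted p was under 0.05 for 1 in males, higher (7.48% of all tested genes), and 3 in females, lower (12.5%). Of 21 interferon genes 16 had a probe set and 4 were bright enough to be tested, with 0 called and 0 at an unadjusted p under 0.05 in the E2 comparisons (limma), and Ifnb1 was below the limit at 54.9 to 91.7 on all 12 arrays.

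Among the adaptors and sensors outside the 39, 10 of 19 were tested and 2 fell in females, where 2.75% of all tested genes did, Mavs, the adaptor of RIG-I, by 0.43 log2 units (SE 0.11, adjusted p = 0.0435, limma) and Ticam1, the adaptor of the RNA sensor Tlr3, by 0.41 (SE 0.09, adjusted p = 0.0291). Both and Tlr4 were called lower on the average (5.78% of all tested genes). Of the negative regulators 15 of 17 were tested. In females 1 was called lower (2.75% of all tested genes), Irf2bp2, by 0.53 (SE 0.13, adjusted p = 0.0467, limma). Irf2 and Irf3 were the 2 tested genes of 6 further IRF factors, and neither was called in any comparison, with average differences of -0.05 and -0.03.

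A wider list of 67 other induced genes had 47 tested members and did not show the male increase: 21 of 47 lay above 0 in males, with a median of -0.01. In females 31 of 47 lay below 0, where 55.8% of all tested genes did. On the average over the sexes 1 of 47 was called higher and 5 lower by limma (8.9% of all tested genes in either direction). The difference of responses lay below 0 for 36 of 47 (59.5% of all genes) with a median of -0.13, and 7 had an unadjusted p under 0.05, all lower (3.2% of all genes), with 0 called by limma. Mlkl, the executor of necroptosis, rose in males by 0.55 ± 0.11 (adjusted p = 0.0301, limma), from 432 ± 67.4 to 629 ± 52.8 (SD, n = 3). Slfn5 fell in females by 0.82 (SE 0.17, adjusted p = 0.021) and Ifi27 by 0.46 (SE 0.12, adjusted p = 0.0472). The immunity GTPase gene Iigp1 had the most negative difference of responses, -0.62 ± 0.21 (adjusted p = 0.854).

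Of 20 antigen presentation genes 13 were tested, and on the average over the sexes 1 was called higher and 2 lower (8.9% of all tested genes in either direction). H2-Aa and Cd74 of the class II pathway fell by 0.71 (SE 0.12) and 0.60 (SE 0.15), and Tap2, the partner of Tap1, rose by 0.56 ± 0.13 (adjusted p = 0.00338, 0.0291 and 0.0207, limma). H2-Aa differed by -0.64 in males and -0.78 in females, Cd74 by -0.57 and -0.62, and Tap2 by 0.65 and 0.47.

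All 8 measured markers of stem cells lay above the test limit, and 6 lay lower under E2 in males and 5 in females. Procr was called lower in both sexes (-0.59 ± 0.09 in males and -0.35 ± 0.09 in females) and Kit in females (-0.37 ± 0.07, with -0.27 ± 0.07 in males). Among all tested genes 0.863% were called lower in males and 2.75% in females. Mecom and Ctnnal1 lay higher in both sexes, uncalled, and Hlf differed by -0.03 in males and 0.02 in females. Progenitor markers, 4 measured, summed to 2348 to 2810.1 in male oil, 2003.5 to 2069.7 in male E2, 2387 to 2889 in female oil and 1836 to 2113 in female E2 arrays, lower under E2 in both sexes. Of the plasmacytoid dendritic cell markers 0 of 6 lay above the test limit, of the macrophage and monocyte markers 1 of 10 (Cd68), of the T and NK cell markers 3 of 10 and of the B cell markers 1 of 5 (Cd79b). The 6 plasmacytoid markers summed to 617 to 782, 662 to 691, 625 to 683 and 716 to 791 in the same order of groups, and the 10 T and NK cell markers to 1474 to 1708, 1178 to 1269.7, 1499 to 1655 and 1236 to 1347. Of the 3 tested T and NK cell markers only Nkg7 was called, lower at -1.82 ± 0.27 in males and -1.51 ± 0.27 in females (adjusted p = 0.00391 and 0.00959, limma). Cd3e differed by -0.03 in males and 0.01 in females, and Cd4 by -0.03 and 0.20. The summed intensity of 10 macrophage and monocyte markers was 1309 to 1501 in male oil, 1079 to 1289.8 in male E2, 1249 to 1468 in female oil and 1276 to 1657 in female E2 arrays. That of 9 neutrophil markers varied within every group, from 6663 to 15597 in male oil, 6250.0 to 12246 in male E2, 8026 to 19452 in female oil and 4197 to 13294 in female E2, and 7 of its 9 genes lay above the limit. The 6 megakaryocyte markers summed to 3143 to 3576 in male oil, 2611 to 2898 in male E2, 3070.4 to 3393 in female oil and 2009 to 2835 in female E2, lower under E2 in both sexes. The single markers were divided: of the 5 tested, Pf4, Gp5 and Itga2b lay lower in both sexes, and Gp9 and Vwf higher. On the average Pf4, Gp5 and Itga2b were called lower and Gp9 higher, at 0.51 ± 0.12 (adjusted p = 0.0187, limma). Of all tested genes 8.9% were called there in either direction. The part of these cells in the differences of the interferon-stimulated genes was not tested.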

How the data were processed

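The authors deposited a linear intensity per probe set for 12 Affymetrix Mouse Gene 1.0 ST arrays, after NuGEN Ovation Pico WTA V2 amplification and Encore Biotin labelling, per the labels' protocols. For background correction, summarisation, normalization and software nothing is stated in the sources at hand. Array medians ran from 143 to 159, and precision is limited by there being 3 arrays a group.

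Probe sets were named from the platform annotation (35474 probe sets, 21780 with 1 symbol, 1605 with several, 12089 with none), and those with 1 symbol were used. The brightest probe set stood for a gene. The deposited intensity plus an offset of 1 was put on a log2 scale, and genes whose mean lay above the median of genes were tested. Group means were fitted over all 12 arrays with limma 3.58.1 (R 4.3.3), with 8 residual and 5.38 prior degrees of freedom, 6 contrasts, 2-sided moderated tests and Benjamini-Hochberg adjustment. The fit was tested on simulated data. Replicates are separate mice, per the series' design text.

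The members and lists were chosen with earlier results of these data known. Values on all arrays are given for members called in a comparison, the 5 brightest, and the 3 largest increases and decreases in males, females and the average; Irf7 and Parp9 were added after their values were seen. Of other lists, called members are named, at most 4, or those with the largest average difference, but not in every list. For the wider list of 67 genes and the cell markers only some called members are named. Iigp1, Ifnb1, Oas1a, Oas1b and several uncalled cell markers were added by choice. Alternatives tried were an offset of 16, median centring, quantile normalization, other filters, trend and robust estimation, array weights, a replicate block, the compared groups alone and leaving out each array.

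Same-numbered arrays of different groups had correlations of their deviations from -0.26 to 0.20, and 4 of 18 exceeded 0.1, so the numbers were not taken as pairs. Promoter sequences are those of RefSeq, GRCm38.p6, of which 1668 of 1668 overlapping windows on opposite strands matched as reverse complements.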

Additional observations from a re-analysis of the deposited data

Results flagged for a closer look

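Parp9 stood out because its groups did not overlap and ran in opposite directions in the sexes. Each male E2 array (539, 451 and 459) lay above each male oil array, but the one at 451 was almost level with the highest male oil array. Each female E2 array (401, 381 and 425) lay below each female oil array. The female E2 response minus the male one was -0.52 on the log2 scale. The difference was tested and was not called (limma adjusted p = 0.654 over all tested genes). No outlier test of single values was run, since each group has 3 arrays.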

How the results depend on the processing

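Over the alternatives the direction of the member medians did not turn in any of the 6 comparisons. In males 143 genes were called, 80 without a filter, 409 with array weights and 390 with the compared groups alone, and the members called were 0, 3 and 1 there. In females 355 genes were called, 183 without a filter, 226 with array weights and 67 with the compared groups alone; members called were 1 without a filter and 0 with the compared groups alone. On the average 568 genes were called without a filter in place of 887, and 1 member in place of 2 with arrays centred on their medians, without a filter and with the filter at the 25th percentile. Between the sexes under oil 7 genes were called without a filter, with array weights and with the compared groups alone, in place of 4 (Xist, Myl10, Creb5 and Slc16a12, named after their values were seen). Under E2 4 were called without a filter and 3 with the 25th percentile filter, in place of 1 (Xist).

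With a replicate block 0 members were called in males and 1 on the average; the numbers did not pair the arrays. Leaving out each array in turn gave 62 (without male E2 replicate 3) to 327 genes (without female E2 replicate 1) and 0 to 2 members called in males. It gave 115 (without female oil replicate 2) to 549 genes (without female E2 replicate 1) and 1 to 5 members in females, and 476 (without female oil replicate 2) to 1147 genes (without female E2 replicate 3) and 1 to 3 members on the average. It gave 1 (Myl10) to 2 genes for the difference of responses, 2 to 8 between the sexes under oil and 1 to 17 under E2, each highest without female E2 replicate 1. The median difference of members between the sexes under E2 then ran from -0.24 to -0.15, with the lowest value without male E2 replicate 2. The cause of these shifts was not tested.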
